A study of Mus musculus with 20 samples.

Results

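The step from birth to hearing in the mouse cochlea was followed by comparing 3 RNA sequencing libraries from postnatal day 16 (P16) with 3 from the day of birth (P0). These 6 libraries were taken by their labels from the 20 of the whole series, which also holds the cochlea at embryonic day 16 (E16) and an auditory brainstem region. All 6 were labelled wild type (WT), no treatment is given for them, and the labels name the inner ear sensory epithelium as the material. Each cochlear sample pooled the dissected sensory epithelia of several C57BL/6JOlaHsd mice of both sexes, and rRNA-depleted total RNA went into strand-marking libraries. A library is therefore a pool of animals, and p-values measure only the spread between these pools. P0 lies before and P16 after the onset of hearing. The 3 E16 cochlea libraries entered the statistical fit and give the level before birth.

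Sound moves the stereocilia of inner and outer hair cells, which opens mechanotransduction channels and lets potassium and calcium in from the endolymph. Inner hair cells pass the signal through ribbon synapses to spiral ganglion neurons, whose axons form the auditory nerve, whereas outer hair cells amplify the motion of the tissue. Mice are born deaf, and in the weeks after birth the tectorial membrane, the potassium cycle through supporting cells and stria vascularis, the hair cell currents and the myelin of the nerve mature.

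Expression is given as CPM, the counts of a gene scaled to the total of its library. Totals ran from 23737172 to 31181323 counts at P0 and from 25234582 to 33109083 at P16. A gene with no count could thus have lain at up to 0.09061 to 0.126 CPM, depending on the library (a floor of 3 counts). A gene was called higher or lower at P16 when edgeR's quasi-likelihood test gave a Benjamini-Hochberg adjusted p under 0.01, the fold change exceeded 2.5 and no library of one age overlapped those of the other. In what follows "rose" and "fell" are used only for called genes, and log2 fold changes (log2FC, P16 minus P0) are given with ± their standard error (SE). Where a gene stands with a single signed value, that value is its log2FC.

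The labelled tissue was checked against marker genes. Hair cell genes were present at both ages, for example Myo7a, the motor myosin of stereocilia, at 72.8, 95.7 and 108 CPM at P0 and 69.6, 97.7 and 104 CPM at P16. The libraries of both ages overlapped in this gene. Genes known from spiral ganglion neurons, Schwann cells, fibrocytes, stria vascularis, bone and marrow, which lie outside the epithelium, were also measured. In such bulk samples fewer cells of a type and less RNA per cell cannot be told apart.

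P16 replicate 3 stood apart. Its summed CPM over 16 neutrophil and myeloid precursor genes of the marrow was 617, against 80.04 and 92.9 in the other P16 libraries and 10.7 to 15.6 at P0. Over 17 erythroid genes it was 1407, against 196 and 347, with 294 to 542 at P0. Genes of dividing cells were high in the same library, at 1166 CPM over 40 cell cycle genes against 404 and 471 at P16 and 1445 to 1466 at P0. P16 replicate 1, in turn, had the highest levels of several stria vascularis genes. Replicates also differed by the GC content of the transcripts they favoured, with a Spearman correlation across genes from -0.691 to 0.652 among the P0 and from -0.543 to 0.424 among the P16 libraries. The results that rest on these libraries are given with and without P16 replicate 3, and the part of marrow or dividing cells in them was not tested.

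**Figure D1:**
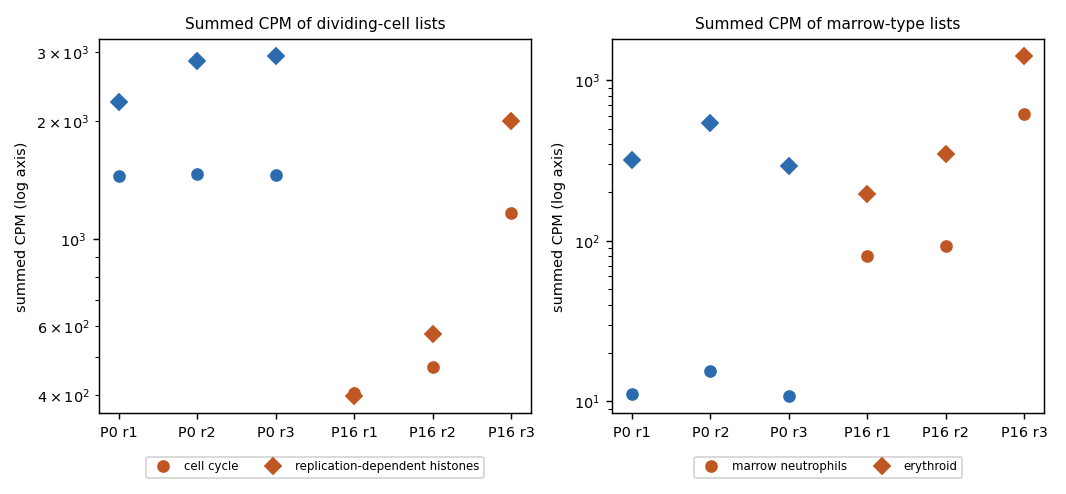
Summed CPM (log axis) of dividing-cell lists (left) and marrow-type lists (right) in each P0 (blue) and P16 (orange) library, r1 to r3 being the replicates. P16 replicate 3 lies at 1166 CPM for cell cycle genes and 617 CPM for marrow neutrophil genes, above both other P16 libraries in every list drawn.

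Of 21097 genes tested, 3040 rose (14.4%) and 2221 fell (10.5%) between P0 and P16, and over all tested genes the median log2FC was 0.0026. Without P16 replicate 3, 3167 genes (15%) rose and 2551 (12.1%) fell, and 2900 of the 3040 higher genes and 2096 of the 2221 lower genes were called again. In the earlier step from E16 to P0, which shares the P0 libraries, 993 genes (4.71%) were higher and 737 (3.49%) lower at P0.

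**Figure D2:**
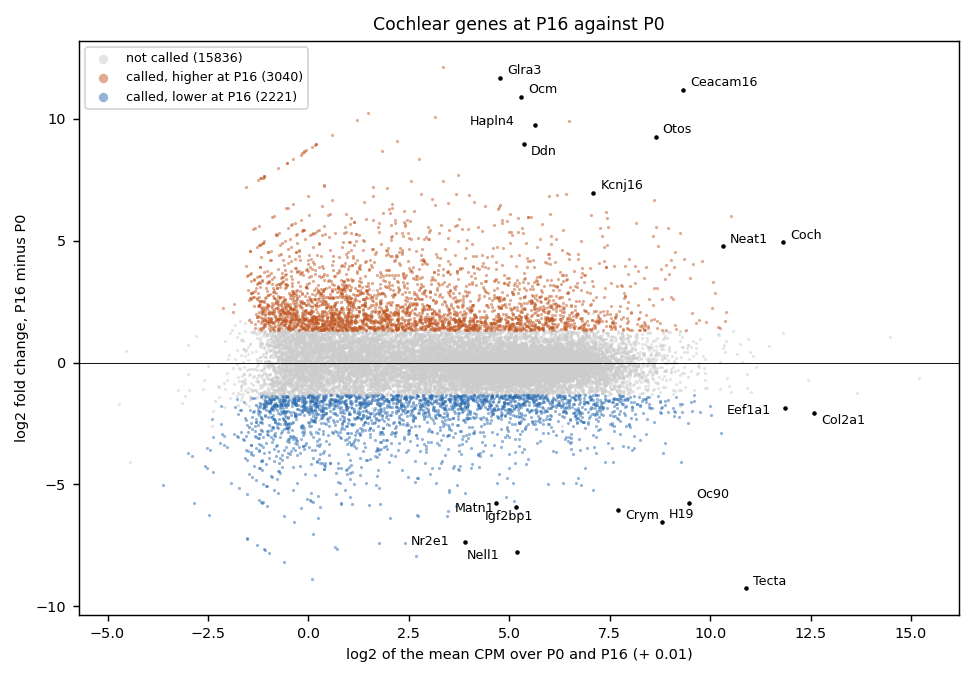
Each point is a gene tested, with the log2 of its mean CPM over P0 and P16 on the horizontal axis and its log2 fold change (P16 minus P0) on the vertical axis. The 3040 called higher genes are orange, the 2221 called lower genes blue and the rest grey, and Tecta lies near the lower end at -9.27 and Ceacam16 near the upper end at 11.19.

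The largest changes are given for called genes with a mean of at least 20 CPM at the age where they were higher. The largest rises came from genes that were close to 0 at birth. Glra3 (chromosome 8, 55940460 to 56130070 in mm10), a subunit of the glycine receptor, had 1 count in all P0 libraries together and 54.3, 51.8 and 58.8 CPM at P16. The P16 libraries were close to each other, and the ratio of CPM was 4540, with an exact 95% counting interval of 814 to 179359. Ocm (chromosome 5, 144019804 to 144026670), the calcium buffer oncomodulin of outer hair cells, had 3 counts at P0 in all and 58.7, 93.0 and 83.6 CPM at P16, a ratio of 2201 (interval 753 to 10677). Mobp (chromosome 9, 120149707 to 120181484), a myelin protein of oligodendrocytes, was at 0 in every P0 and E16 library and at 16.1, 41.5 and 3.09 CPM at P16, at least 160-fold above a floor of 3 counts in a library. Its P16 libraries were uneven, with the lowest in replicate 3, and without replicate 2 the bound was 75.9-fold. Gm5737 (chromosome 7, 120812365 to 120831193) had 3 counts at P0 in all and 30.2, 42.7 and 50.01 CPM at P16, a ratio of 1135 (interval 388 to 5504). Intervals and floors cover counting error only, and fitted fold changes of such genes depend on the prior count of the fit.

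Ceacam16 (chromosome 7, 19852097 to 19861299), which encodes a glycoprotein of the tectorial membrane, was at 1.10, 0.320 and 0.289 CPM at P0 and 849.8, 1079 and 1909 CPM at P16 (log2FC 11.19 ± 0.48, adjusted p 2.21e-08). All P16 libraries were high, the third the most. Gm19345 (chromosome 7, 19852003 to 19858350) lies on the other strand across Ceacam16 and rose from 0.211, 0.142 and 0.192 to 163, 187 and 186 CPM. Since 23.2% of the Ceacam16 exon sequence and 38.3% of that of Gm19345 are overlapped by a gene of the opposite strand, and no source says whether counting used strand, reads of the pair cannot be told apart. Other large rises were those of Hapln4, a link protein of perineuronal nets (9.76), Ddn, the postsynaptic protein dendrin (8.97), Slc9a3, a sodium-proton exchanger (7.71), and Odf3l2 (7.46). In each of them the libraries of both ages lay apart. Ddn, for example, had 0.169, 0.213 and 0.0962 CPM at P0 and 84.0, 80.8 and 80.8 CPM at P16.

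The largest fall was that of Tecta (chromosome 9, 42329619 to 42399929), which encodes alpha-tectorin, the main non-collagenous protein of the tectorial membrane. Tecta was one of the most abundant genes that fell, with 3369, 3596 and 4326 CPM at birth, and stood at 5.59, 4.86 and 8.203 CPM at P16 (log2FC -9.27 ± 0.25, adjusted p 1.83e-09). Nell1 (chromosome 7, 49974864 to 50866608), a secreted glycoprotein, went from 79.1, 78.7 and 61.5 to 0.378, 0.332 and 0.277 CPM (log2FC -7.78 ± 0.18, adjusted p 7.47e-10). Nr2e1, an orphan nuclear receptor, went from 26.6, 27.1 and 34.8 to 0.113, 0.121 and 0.317 CPM (log2FC -7.35 ± 0.29), and again every P16 library was near 0. Vstm2b (-6.28), Tmem132d (-6.10) and the synaptotagmin gene Syt6 (-5.90) fell by similar log2 amounts. Syt6, Nell1 and Tecta had been called higher at P0 than at E16 (log2FC values of 2.69, 1.35 and 1.37), so they were highest at birth among the 3 ages sampled.

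Ranked by level instead, the most abundant genes that rose included Coch, Neat1, Map1b, Dst and Apod. Neat1 (chromosome 19, 5824708 to 5845478), the noncoding RNA scaffold of paraspeckles, went from 99.9, 98.9 and 71.1 to 2969, 2305 and 2097 CPM (log2FC 4.76 ± 0.23, adjusted p 5.21e-08). The ages did not overlap, with replicate 1 the highest at P16. Map1b, a microtubule protein of neurons, stood at 383, 577 and 559 CPM at P0 and 2057, 2157 and 2319 CPM at P16 (log2FC 2.09 ± 0.18). Dst, the cytoskeletal linker dystonin, rose by 1.71 and Apod, the lipid carrier apolipoprotein D, by 3.31 on the log2 scale. The most abundant genes that fell were Col2a1, Eef1a1, Tecta, Fstl1, Col9a2 and Col9a1. Eef1a1 (chromosome 9, 78478449 to 78489151), a translation elongation factor, went from 5846, 5695 and 5939.7 to 1519, 1686 and 1587 CPM (log2FC -1.88 ± 0.13, adjusted p 4.35e-07). Fstl1, a secreted glycoprotein related to follistatin, went from 2404, 2051 and 2115 to 342, 286 and 268 CPM (log2FC -2.88 ± 0.13). Both genes were tight within each age.

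Among genes of the mechanotransduction complex and the tip link, 1 of 12 rose and 1 fell, with a median log2FC of 0.15. Beside them stand 14.4% higher and 10.5% lower of all genes tested and their median near 0, which is also the background of the lists that follow. These were the pore-forming subunits of the channel. Tmc1 (chromosome 19, 20783458 to 20954202) was at 3.71, 2.49 and 2.89 CPM at P0 and at 17.9, 23.4 and 18.2 CPM at P16 (log2FC 2.71 ± 0.20, adjusted p 1.02e-06). Tmc2 (chromosome 2, 130195194 to 130264445) was at 3.96, 2.84 and 4.52 CPM at P0 and at 0.378, 0.362 and 0.357 CPM at P16 (log2FC -3.36 ± 0.25, adjusted p 9.45e-07). Neither gene overlapped between the ages, and they moved in opposite directions. Per kilobase of exon, Tmc2 had the higher mean level at P0 (1.17 against 0.421 CPM per kb), and Tmc1 at P16 (2.76 against 0.114). Tmc2 had itself been called higher at P0 than at E16 (3.41), so it was highest at birth among the 3 ages. The tip link cadherin genes Cdh23 (-0.62 ± 0.27) and Pcdh15 (-0.18 ± 0.14) and the channel partners Cib2 (0.14 ± 0.13) and Lhfpl5 (0.52 ± 0.22) did not pass.

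Stereocilia and cuticular plate genes counted 2 higher and 5 lower of 32, with a median of -0.28 (-0.0067 with offsets adjusted for GC content). Strc, which encodes stereocilin of the links between neighbouring stereocilia, was at 14.6, 15.2 and 18.9 CPM at P0 and 29.2, 56.4 and 55.5 CPM at P16 (log2FC 1.52 ± 0.25, adjusted p 0.000317). Replicate 1 was the lowest at P16 but lay above all P0 libraries. Adgrv1 (chromosome 13, 81095068 to 81633154), an adhesion receptor of the transient ankle links, went from 69.9, 47.8 and 63.6 to 11.5, 10.4 and 9.79 CPM (log2FC -2.52 ± 0.15, adjusted p 2.10e-07). It was low in every P16 library. The actin bundler Fscn1 (-2.58) and the espin-like gene Espnl (-3.81) also fell. Myo3b (-1.35) and the actin-capping gene Eps8l2 (1.32) passed by a small margin and were not called without P16 replicate 3. Fscn2, Ptprq and Grxcr2, other genes of the bundle, had been called higher at P0 than at E16 and did not pass from P0 to P16 (0.18, 0.26 and 0.52).

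Genes of outer hair cell function rose in 8 of 14 cases and fell in none, with a median of 1.501. Slc26a5 (chromosome 5, 21810655 to 21865604), which encodes prestin, the motor protein of electromotility, was at 1.43, 1.63 and 1.31 CPM at P0 and 88.6, 109.7 and 78.4 CPM at P16 (log2FC 5.97 ± 0.20, adjusted p 5.48e-09). Kcna10, a voltage-gated potassium channel, went from 1.47, 1.42 and 1.80 to 10.9, 10.2 and 12.8 CPM (log2FC 2.83 ± 0.18). For both genes the P16 libraries lay together and well above birth. Atp2b2, the calcium pump of the stereocilia, went from 48.8, 60.2 and 70.5 to 371, 386 and 468 CPM (log2FC 2.75 ± 0.16), and Kcnn2, the calcium-gated potassium channel opposite efferent endings, from 7.96, 8.81 and 10.6 to 25.8, 26.8 and 36.1 CPM (log2FC 1.68 ± 0.18). Ikzf2, a transcription factor of outer hair cells that passed by a small margin (1.32), Strip2 (1.79) and Ppp1r17, with 1 count at P0 in all and 9.22, 9.79 and 8.56 CPM at P16 (ratio 768, interval 137 to 30370), complete the group together with Ocm. The nicotinic receptor subunits of the efferent synapse, Chrna9 (0.19 ± 0.18) and Chrna10 (0.50 ± 0.22), did not pass, after log2 rises of 3.25 and 3.16 from E16 to P0.

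**Figure D3:**
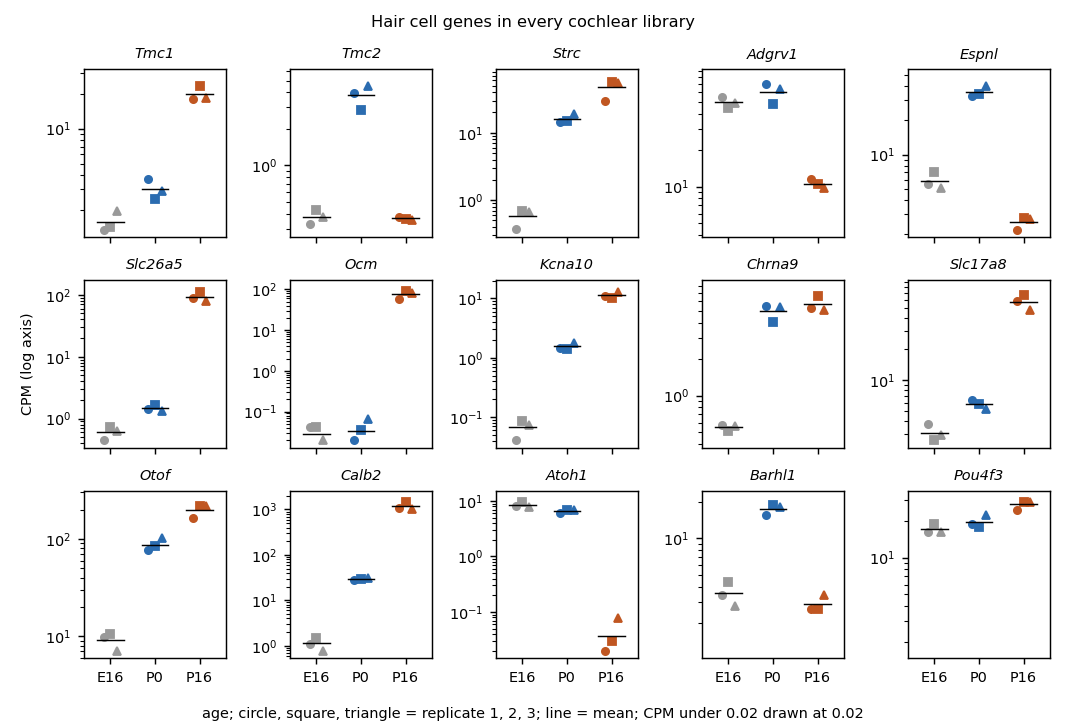
CPM (log axis) of 15 hair cell genes in every cochlear library at E16 (grey), P0 (blue) and P16 (orange), with the mean as a line and values under 0.02 CPM drawn at 0.02. Tmc1, Slc26a5 and Ocm are highest at P16, Tmc2, Adgrv1 and Espnl have their highest mean at P0, and Atoh1 drops to between 0 and 0.0793 CPM at P16.

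At the inner hair cell ribbon synapse 9 of 21 genes rose and 1 fell, with a median of 1.18. Slc17a8 (chromosome 10, 89574020 to 89621253), the vesicular glutamate transporter of inner hair cells, was at 6.49, 5.89 and 5.26 CPM at P0 and 59.5, 66.8 and 48.1 CPM at P16 (log2FC 3.30 ± 0.18, adjusted p 8.87e-08). Cabp2, a calcium-binding modulator of presynaptic calcium channels, went from 1.77, 1.35 and 1.54 to 20.1, 25.0 and 15.9 CPM (log2FC 3.71 ± 0.23), and the related Cabp1 rose by 4.16. Kcnma1, the calcium-activated potassium channel that marks mature inner hair cells, went from 13.8, 14.6 and 14.6 to 78.4, 73.1 and 86.4 CPM (log2FC 2.46 ± 0.12). All of these separated the ages without overlap. Otof, the calcium sensor otoferlin, had 76.4, 85.0 and 101 CPM at P0 and 166, 216 and 219.8 CPM at P16 and missed the required fold change (log2FC 1.18 ± 0.17, adjusted p 0.000138). Cacna1d, the calcium channel of the ribbon synapse, likewise did not pass (log2FC 0.67 ± 0.094).

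Genes of 3 calcium buffers did not move alike. Calb2, calretinin, went from 28.4, 29.4 and 31.2 to 1077, 1484 and 1006 CPM (log2FC 5.32 ± 0.21, adjusted p 1.54e-08). Pvalb, parvalbumin, went from 21.9, 18.9 and 22.5 to 192, 276 and 161 CPM (log2FC 3.30 ± 0.20). Calb1, calbindin, went from 96.5, 55.4 and 77.7 to 7.74, 6.61 and 5.55 CPM (log2FC -3.53 ± 0.21, adjusted p 1.89e-07). Spiral ganglion neurons also express calcium buffers, and these bulk libraries do not say in which cells each changed.

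Transcription factors of hair cells and their precursors had 10 of 24 members lower and none higher, with a median of -0.64 (9 lower without P16 replicate 3). Atoh1 (chromosome 6, 64729125 to 64731245), which starts hair cell differentiation, was at 6.11, 6.89 and 6.96 CPM at P0 and had 3 counts at P16 in all, a ratio of 189 (95% interval 64.4 to 920.3). Nhlh1 (-5.79), Insm1, a zinc finger factor of early outer hair cells and neurons (-4.35), Barhl1 (-2.60), Lhx3 (-1.86), Hes6 (-2.08), Pax2 (-2.52), Id1 (-1.85) and Hmga2 (-5.32) fell too. Sox2, the factor of prosensory and supporting cells, went from 48.6, 46.5 and 55.1 to 20.7, 20.3 and 19.02 CPM (log2FC -1.33 ± 0.11, adjusted p 1.82e-06) and was not called without P16 replicate 3 (-1.25). Pou4f3, which hair cells need to survive, stood at 19.04, 17.8 and 22.5 CPM at P0 and 24.7, 28.7 and 28.8 CPM at P16 and did not pass (log2FC 0.46 ± 0.14, adjusted p 0.0119). Lmx1a (-0.49) did not reach the fold change either.

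Tectorial membrane genes counted 1 higher and 5 lower of 12, with a median of -0.998. Beside Tecta and Ceacam16, Tectb, beta-tectorin, went from 368, 343 and 429.8 to 82.2, 84.7 and 93.7 CPM (log2FC -2.14 ± 0.12, adjusted p 1.55e-07). Col2a1 (chromosome 15, 97975602 to 98004695), the fibrillar collagen of both the tectorial membrane and cartilage, went from 8584, 10454 and 10542 to 2710.4, 1994 and 2477 CPM (log2FC -2.06 ± 0.17). The associated collagens Col9a1 (-1.79) and Col9a2 (-2.15) fell with it. Of 11 cartilage genes 4 rose and 4 fell. Matn1, a cartilage matrilin, fell (-5.92) while Acan, the core protein of cartilage proteoglycan, rose (4.17), as did Ucma (6.17), which was named after its value was seen. Otoa, otoancorin of the membrane's attachment, had 330.5, 284 and 368 CPM at P0 and 508, 550.2 and 539 CPM at P16 and did not reach the fold change (log2FC 0.69 ± 0.12, adjusted p 0.000354). Otog (-0.87) and Otogl (-0.28), the otogelins, did not pass. Per kilobase of exon, mean Tecta was at 508 and Ceacam16 at 0.347 CPM per kb at P0, and they stood at 0.839 and 782 at P16, so the order of the levels turned round.

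Genes of the otoconia, the crystals of the vestibular organs, were present. Oc90 (chromosome 15, 65876053 to 65912397), the matrix protein otoconin, went from 1377, 1355 and 1487 to 35.5, 21.8 and 20.4 CPM (log2FC -5.78 ± 0.23, adjusted p 1.38e-08). Otop1, the proton channel otopetrin, went from 0.211, 0.284 and 0.289 to 34.3, 31.4 and 29.0 CPM (log2FC 6.86 ± 0.60). These moved in opposite directions and each without overlap. Otol1 was not called (log2FC -0.82 ± 0.18).

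Supporting cell genes of gap junctions and potassium uptake rose in 8 of 16 cases, and 1 fell (median 1.08). Kcnj16 (chromosome 11, 110968033 to 111027968), an inward-rectifier potassium channel subunit, was at 2.36, 1.85 and 2.28 CPM at P0 and 270.1, 283 and 258 CPM at P16 (log2FC 6.95 ± 0.15, adjusted p 7.47e-10). Kcnj10, with which it forms channels, went from 14.0, 16.3 and 17.7 to 226, 176 and 227 CPM (log2FC 3.69 ± 0.15, adjusted p 1.54e-08). In both, the P16 libraries stood close together. Gjb6, a connexin of the cochlear gap junction network, went from 61.7, 69.2 and 55.9 to 415, 412 and 407 CPM (log2FC 2.71 ± 0.15), whereas its partner Gjb2 was at 291, 401 and 356 and 519, 449 and 605 CPM and did not pass (log2FC 0.57 ± 0.15). Gjb2 had been called higher at P0 than at E16 (1.55), as had Gjb6 (2.12). Aqp4, a water channel (4.32), Slc26a4, the anion exchanger pendrin (2.34), Slc12a7, a potassium-chloride cotransporter (1.51), and Epyc, a small proteoglycan (1.34), rose. Matn4, a matrilin, fell (-2.92). The listed genes are not exclusive to supporting cells, and Aqp4 and Gjb6 were also listed as astrocyte genes. These bulk libraries do not say in which cells each changed.

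The stria vascularis secretes potassium and holds the positive potential of the endolymph. Its list had 4 higher and 3 lower of 21 genes with all libraries (median 0.38), and 5 higher and 1 lower without P16 replicate 3 (median 0.57). Without P16 replicate 1 the median was -0.27, so that its sign rested on that library. Kcnq1 and Kcne1, the subunits of the channel that secretes potassium, were highest in replicate 1 at P16. Kcnq1 had 37.9, 57.9 and 48.2 CPM at P0 and 47.9, 17.9 and 27.7 CPM at P16, with overlap and no call (log2FC -0.65 ± 0.30, adjusted p 0.0821). Kcne1 showed the same order of libraries, with 42.0, 65.6 and 48.3 CPM at P0 and 64.0, 16.8 and 28.4 CPM at P16. Bsnd, the chloride channel subunit barttin, went from 10.995, 13.7 and 12.1 to 7.74, 1.99 and 2.58 CPM (log2FC -1.60 ± 0.41, adjusted p 0.00549). It was not called without P16 replicate 3, nor with GC-adjusted offsets, and its log2FC was -2.44 without P16 replicate 1. Slc12a2, the cotransporter that loads the secreting cells, was at 695, 551 and 499 CPM at P0 and 1821, 903 and 692 CPM at P16 and did not pass (log2FC 0.96 ± 0.29). Dct, a melanin enzyme of intermediate cells, was at 363, 72.3 and 95.2 CPM at P16, again high in replicate 1, against 95.9, 114 and 94.4 CPM at P0, and was not called (0.78, or -0.29 without replicate 1). Pmel, another melanocyte gene, fell (-3.48), and Lrp2 (1.41), Atp1b1 (2.62) and Atp13a5 (3.28) rose. Whether the amount of stria in each dissection differed was not tested.

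Sodium-potassium ATPase genes rose in 7 of 14 cases and fell in 2, with a median of 1.49. The beta subunit Atp1b1 went from 143, 145 and 163 to 991, 919.7 and 892 CPM (log2FC 2.62 ± 0.12, adjusted p 3.03e-08), whereas Atp1a4 fell (-4.001).

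Fibrocytes of the spiral ligament and limbus had 5 of 10 list genes higher and 3 lower, with a median of 0.70. Coch (chromosome 12, 51593341 to 51605771), the matrix protein cochlin, went from 297, 173 and 213 to 6246, 6611 and 8122 CPM (log2FC 4.94 ± 0.20, adjusted p 1.78e-08) and was the most abundant of all genes that rose. Otos (chromosome 1, 92644218 to 92648841), the secreted protein otospiralin, went from 2.11, 1.03 and 0.802 to 368, 492 and 1529 CPM (log2FC 9.27 ± 0.68, adjusted p 8.03e-07). Its level in replicate 3 was above that of the other P16 libraries, and the log2 fold change without that library was 8.44. Slc4a11, a membrane transporter of fibrocytes (5.07), Emilin2, a matrix glycoprotein (4.20), and Gsn, the actin-severing gelsolin (1.53), rose. Pou3f4, the transcription factor of otic mesenchyme, went from 294, 325 and 288 to 86.8, 75.0 and 104 CPM (log2FC -1.78 ± 0.13). Tbx18 (-2.30) and Otor (-1.97) also fell.

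Spiral ganglion neuron genes rose in 19 of 34 cases and fell in 4, with a median of 1.47. Nefh (chromosome 11, 4938754 to 4948064), the heavy neurofilament of large axons, went from 14.4, 23.4 and 25.3 to 922, 984 and 1008 CPM (log2FC 5.50 ± 0.23, adjusted p 1.83e-08). The other neurofilament genes Nefl (3.15) and Nefm (2.36) rose less, and Prph, peripherin, fell (-3.27). Slc17a7 (chromosome 7, 45163949 to 45176142), the vesicular glutamate transporter of auditory nerve endings, went from 6.87, 8.70 and 9.59 to 274, 323 and 326 CPM (log2FC 5.18 ± 0.16, adjusted p 4.61e-09), and Slc17a6, a related transporter, rose by 3.28. Snap25, a protein of vesicle fusion, went from 20.2, 18.997 and 22.4 to 788, 855 and 598 CPM (log2FC 5.17 ± 0.20).

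A pair of vesicular calcium sensors changed order. Syt2 (chromosome 1, 134646677 to 134762593), the sensor of fast release, went from 9.18, 12.2 and 13.0 to 284, 328 and 330.5 CPM (log2FC 4.76 ± 0.18, adjusted p 9.04e-09). Syt1 (chromosome 10, 108497650 to 109010982) went from 87.1, 78.2 and 90.1 to 20.1, 12.4 and 12.6 CPM (log2FC -2.51 ± 0.18, adjusted p 6.78e-07). Per kilobase of exon, the mean of Syt1 was 10.2 against 1.501 CPM per kb for Syt2 at P0, and 1.81 against 41.1 at P16. Syt1 had been called higher at P0 than at E16 (1.41). Gap43 and Dcx fell. Gap43, a growth cone protein, went from 28.9, 34.5 and 32.1 to 2.72, 1.69 and 0.911 CPM (log2FC -4.17 ± 0.28, adjusted p 4.79e-07), and Dcx, the microtubule protein doublecortin of migrating neurons, from 52.2, 54.1 and 58.2 to 8.46, 7.07 and 7.93 CPM (log2FC -2.83 ± 0.16). Thy1, a surface glycoprotein of mature neurons, went from 1.35, 2.38 and 1.70 to 99.6, 117 and 164 CPM (log2FC 6.10 ± 0.28). Runx1 (1.33) and Scrt2 (1.56), both transcription factors, were called higher with all libraries but not without P16 replicate 3 (1.16 and 0.99). In which cells they changed was not tested.

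**Figure D4:**
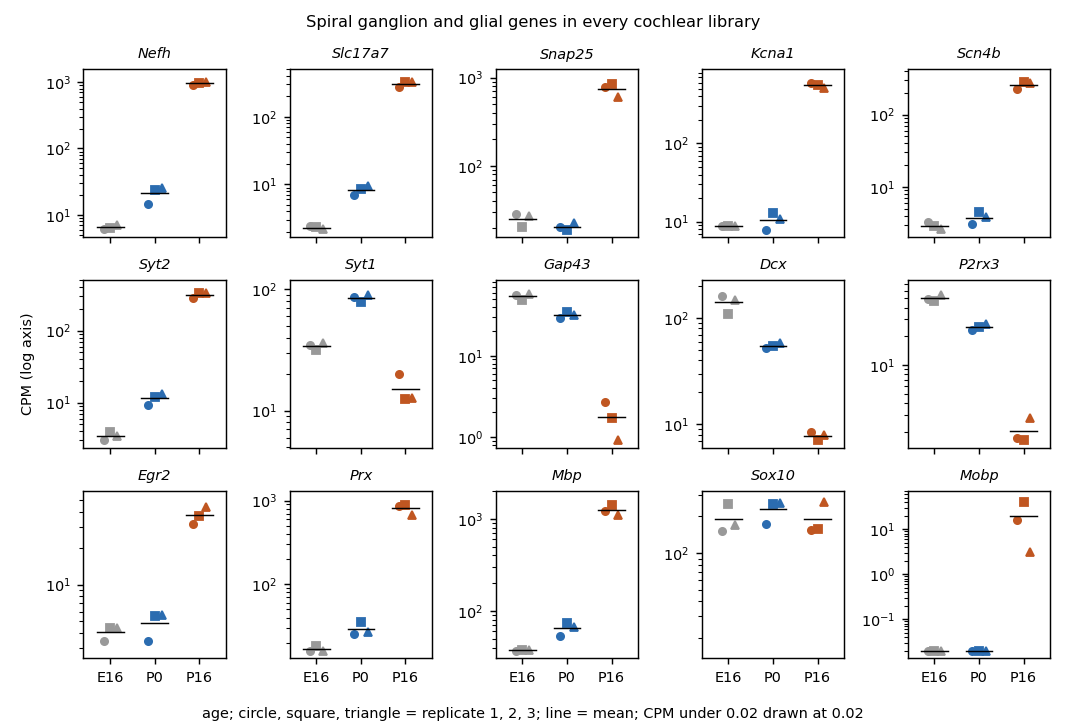
CPM (log axis) of 15 spiral ganglion and glial genes in every cochlear library at E16 (grey), P0 (blue) and P16 (orange), with the mean as a line and values under 0.02 CPM drawn at 0.02. Syt2 and Slc17a7 rise as Syt1, Gap43, Dcx and P2rx3 decline, Sox10 overlaps between P0 and P16, and Mobp ranges from 3.09 to 41.5 CPM among the P16 libraries.

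Myelin genes common to both glial types rose in 11 of 13 cases and none fell (median 3.61). Mbp, myelin basic protein, went from 54.0, 74.6 and 66.4 to 1228, 1401 and 1087 CPM (log2FC 4.24 ± 0.17, adjusted p 1.62e-08). Of the Schwann cell genes 11 of 16 rose and 1 fell (median 3.16). Prx (chromosome 7, 27499324 to 27520214), periaxin of the Schwann cell membrane, went from 25.4, 35.0 and 26.9 to 852, 896 and 682 CPM (log2FC 4.79 ± 0.18, adjusted p 1.09e-08), and Egr2, the transcription factor of myelination, from 3.45, 5.50 and 5.58 to 31.5, 37.1 and 43.6 CPM (log2FC 2.92 ± 0.22). All P16 libraries were high in each of these genes. Sox10, the factor that glial cells keep through life, had 174, 253 and 260.4 CPM at P0 and 155, 158 and 265 CPM at P16. Its libraries overlapped and it was not called (log2FC -0.27 ± 0.25, adjusted p 0.362). Gfra3, a receptor of the GDNF family, fell from 0.716, 1.24 and 1.09 CPM to 3 counts at P16 in all, a ratio of 29.3 (95% interval 9.69 to 145).

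Oligodendrocyte genes were sparse, with 9 of 14 listed genes passing the filter on low values, of which 4 rose. Mobp, described above, and Gjc3, which Schwann cells also express (2.70), were among them, and the others were Gpr17 (3.17) and Nkx6-2 (2.41, or 3.12 without P0 replicate 2). Mog, the surface protein of mature oligodendrocytes, was at 1.90, 1.24 and 1.25 CPM at P0 and 1.66, 3.96 and 0.357 CPM at P16. It was highest in replicate 2 and lowest in replicate 3, the same order as Mobp, and was not called (log2FC 0.50 ± 0.58). Gfap, of astrocytes and other glia, had the same order at P16, with 11.8, 34.8 and 7.29 CPM, and rose (log2FC 2.36 ± 0.49, or 1.42 without replicate 2). The share of central nervous tissue in these dissections was not tested.

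Genes of the nodes of Ranvier rose in 7 of 13 cases, with a median of 1.57. Cntnap1, a protein of the junction beside the node, went from 13.4, 18.3 and 18.7 to 92.8, 117 and 131 CPM (log2FC 2.74 ± 0.18, adjusted p 3.46e-07). Sptbn4, the spectrin that anchors nodal channels, went from 10.995, 16.5 and 14.8 to 70.6, 87.5 and 85.1 CPM (log2FC 2.51 ± 0.18), and the adhesion gene Cntn2 rose by 2.02. Nfasc, neurofascin, did not reach the fold change (log2FC 0.90 ± 0.14, adjusted p 0.000254).

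Ion channel genes changed in both directions. Of 86 genes with a potassium channel symbol, 36 rose and 12 fell, with a median of 0.83. The symbol pattern also took in Kcnq1ot1, Kcnmb4os2 and Kcnrg, which are not channel subunits. Kcna1 (chromosome 6, 126640397 to 126646384), a low-threshold channel of auditory neurons, went from 7.92, 12.7 and 10.9 to 597, 568 and 516 CPM (log2FC 5.71 ± 0.19, adjusted p 5.78e-09). Kcna2, its partner, rose by 3.92, and Kcnc1, a channel of fast-spiking neurons, by 3.89. Kcnj6, a G protein-gated channel, rose by 4.03 from 0.0843, 0.107 and 0.128 CPM. These P0 levels lay near the floor of 3 counts (0.126, 0.107 and 0.0962 CPM), so its fold change rests on few counts at birth. The largest falls were those of Kcne1l (-5.21), Kcnh6, an ether-a-go-go-related channel (-5.01), and Kcnf1 (-2.87). Kcnh6 stood at 20.4, 27.9 and 27.6 CPM at P0 and 0.567, 0.785 and 1.03 CPM at P16, without overlap.

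Of 13 sodium channel subunits, 6 rose and 5 fell. The alpha subunit gene Scn1a went from 8.05, 7.28 and 7.34 to 149, 139 and 108 CPM (log2FC 4.12 ± 0.16, adjusted p 1.29e-08), and Scn4b, a beta subunit tied to resurgent current, from 3.08, 4.47 and 3.82 to 222, 277 and 273 CPM (log2FC 6.06 ± 0.18, adjusted p 3.90e-09). Scn8a, the channel of mature nodes, rose by 3.35. Scn3a, an alpha subunit typical of immature neurons, fell by 1.86 on the log2 scale, and Scn11a fell too (-3.43). Among 22 calcium channel subunits 5 rose and 4 fell. Cacna1h, a low-threshold T-type channel, went from 61.5, 94.3 and 86.6 to 3.21, 4.71 and 5.83 CPM (log2FC -4.16 ± 0.27, adjusted p 3.16e-07), and Cacna1g, of the same type, fell by 1.74. The accessory subunit Cacnb4 rose by 2.25. Cacna1a, a presynaptic channel, was called higher with all libraries (1.32) but not without P16 replicate 3.

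Transmitter receptor subunits followed no single direction. Of 20 genes with a glutamate receptor symbol 5 rose and 7 fell. The symbol pattern also took in the opposite-strand transcript Grin1os, which was called, and Grid2ip, the gene of an interacting protein. Neither is a receptor subunit. Gria2, the subunit that limits calcium flow through AMPA receptors, went from 9.18, 7.17 and 5.97 to 78.5, 66.4 and 51.3 CPM (log2FC 3.14 ± 0.22, adjusted p 5.70e-07). The NMDA receptor subunits Grin2a (-3.797) and Grin2b (-2.17) fell and Grin2c rose (3.798), and Grin2a ranged from 0.357 to 3.32 CPM among the P16 libraries with the highest in replicate 1, without which its log2FC was -5.26. Of 15 GABA and glycine receptor genes 3 rose, all of them glycine receptor subunits, and 6 fell, all of them GABA receptor subunits. Glrb, the glycine receptor subunit that binds the synaptic scaffold, went from 17.1, 10.8 and 12.4 to 178, 189.6 and 174 CPM (log2FC 3.74 ± 0.16, adjusted p 1.83e-08), and Gabra3 from 2.44, 2.24 and 2.76 to 0.0755, 0.121 and 0.159 CPM (log2FC -4.35 ± 0.27). Of the purinergic channels P2rx2, the ATP-gated subunit of the mature cochlea, went from 5.86, 7.24 and 8.59 to 99.0, 111 and 158 CPM (log2FC 4.06 ± 0.22, adjusted p 1.13e-07), while P2rx3 went from 23.1, 24.9 and 27.0 to 1.74, 1.63 and 2.77 CPM (log2FC -3.63 ± 0.19, adjusted p 9.27e-08). Again neither gene overlapped between the ages. Chrnb3, a nicotinic subunit, went from 4.00, 2.66 and 2.76 CPM at P0 to 1 count at P16 in all (ratio 261, interval 46.5 to 10363). Chrng, the fetal subunit of the muscle receptor, fell by 4.65.

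Signalling pathways of development came next. Of 26 Notch pathway genes 11 fell and 1 rose (median -1.10). Notch1, the receptor of lateral inhibition in the sensory epithelium, went from 535, 807 and 834 to 177, 198 and 283 CPM (log2FC -1.75 ± 0.22, adjusted p 4.96e-05). Hes5, its target in supporting cells, went from 4.34, 3.98 and 3.50 to 0.0378, 0.151 and 0.238 CPM (log2FC -4.76 ± 0.36), and the ligand gene Dll3 fell by 5.81. Hey1 (-0.38) and Hey2 (0.21), related targets, did not pass, and neither did the ligand Jag2 (-1.18), although it was called lower without P0 replicate 1 (-1.35). Dner, a neuronal transmembrane protein on the list, rose (1.79) and was named after its value was seen.

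Of 49 Wnt signalling genes 15 fell and 7 rose (median -0.60). Axin2, a target of canonical Wnt signalling, went from 199.8, 217 and 204 to 60.8, 68.4 and 65.3 CPM (log2FC -1.69 ± 0.11, adjusted p 2.87e-07). The secreted modulators Sfrp1 (-3.19) and Sfrp2 (-6.18) fell, with Sfrp2 at 51.2, 94.5 and 82.8 CPM at P0 and 0.793, 0.755 and 1.70 CPM at P16. Lgr5, a receptor of supporting cells that can divide in the newborn, did not reach the fold change (log2FC -0.76 ± 0.12, adjusted p 0.000231), nor did Lef1 (-1.17). Early patterning factors had 12 of 32 members lower and 1 higher (median -0.997). Sox11, a factor of immature neurons, went from 339, 269 and 312 to 59.0, 55.7 and 47.4 CPM (log2FC -2.51 ± 0.13), and Twist1, of mesenchyme, fell by 1.58. Eya1 (-1.01) and Tbx1 (-0.72) did not pass. Among 22 neurotrophin and related genes 2 rose and 3 fell, Ntf3 among the latter with 10.5, 8.98 and 8.92 CPM at P0 and 2.57, 2.24 and 1.94 CPM at P16 (log2FC -2.08 ± 0.15, adjusted p 7.53e-07). Bdnf (0.98 ± 0.19) and the receptor genes Ntrk2 (0.45) and Ntrk3 (1.01) did not pass.

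Imprinted growth genes fell in 15 of 23 cases and 1 rose, with a median of -2.45, which P16 replicate 3 hardly moved (-2.48 without it). H19 (chromosome 7, 142575529 to 142578143), a noncoding RNA expressed from the maternal allele, went from 787, 961 and 893 to 8.65, 10.96 and 9.31 CPM (log2FC -6.52 ± 0.19, adjusted p 2.83e-09). Igf2, the paternally expressed growth factor gene next to it, went from 714, 941 and 892 to 73.7, 87.2 and 104 CPM (log2FC -3.28 ± 0.19, adjusted p 1.64e-07). Dlk1 (-6.29), Cdkn1c, a cell cycle inhibitor (-3.56), Plagl1 (-2.81) and Mest (-2.31) fell as well. The exception was Meg3, a maternally expressed noncoding RNA, which went from 382, 479.9 and 489 to 1547, 1506 and 1299 CPM (log2FC 1.67 ± 0.15, adjusted p 3.38e-06). Peg3 did not reach the fold change (-0.56). Of 11 targets and regulators of the let-7 miRNA family 5 fell. Igf2bp1 (chromosome 11, 95957163 to 96005940), an RNA-binding protein of embryonic tissue, went from 43.9, 49.2 and 56.3 to 1.06, 0.664 and 1.07 CPM (log2FC -5.77 ± 0.19, adjusted p 5.30e-09), and Igf2bp3 fell by 1.74. Lin28b, which blocks let-7 maturation, was called in neither step, with a log2FC of -1.22 from E16 to P0 and -0.36 from P0 to P16.

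Cell cycle genes showed how much 1 library can weigh. With all libraries 10 of 40 fell and none rose (median -1.06), and without P16 replicate 3 it was 31 (median -1.89). Mki67, a protein of dividing cells, had 135, 159 and 163 CPM at P0 and 29.5, 48.5 and 277 CPM at P16, and was called lower without replicate 3 but not with it (-1.92 and -0.39). Cdk1, the mitotic kinase, had 19.7, 20.9 and 20.2 CPM at P0 and 1.89, 1.87 and 13.0 CPM at P16 (-3.39 and -1.90). Top2a, the topoisomerase of replicated chromosomes, had 97.8, 70.6 and 79.1 CPM at P0 and 15.3, 19.7 and 87.1 CPM at P16 (-2.20 and -1.04). Cdk1 and Top2a too were called lower without that library, and were not called in the fit of all libraries. In each of these genes replicate 3 lay several-fold above the other P16 libraries. Ccnd1, a cyclin of the growth phase, did not follow that order, with 99.0, 121 and 107 CPM at P0 and 16.8, 14.95 and 13.2 CPM at P16 (log2FC -2.87 ± 0.13, adjusted p 3.75e-08). Foxm1, a factor that drives mitotic genes, fell with and without the library (-2.11 and -3.02). Replication-dependent histone genes fell in 7 of 49 cases with all libraries and in 42 without replicate 3, their median going from -1.22 to -3.07. Hist1h1e, a linker histone, had 427, 447 and 535 CPM at P0 and 54.1, 63.2 and 168 CPM at P16 (log2FC -2.33 ± 0.36, adjusted p 0.000226), and its log2FC was -2.97 without replicate 3. Hist1h1t (-2.69, or -3.24 without replicate 3) and Hist1h2ac (-2.55, or -4.09) fell too. Histone genes are near-identical copies, so reads may be split between them. The marrow lists were highest in the same library, and whether its dividing cells came from there was not tested.

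Promoters of 3 of these cell cycle and histone genes are shown, each as 300 bases from 250 before to 50 after the annotated start, from RefSeq on GRCm38.p6. Windows of cell cycle genes were chosen only where they held CCAAT and either TTTGAA or TTCGAA. Those of histone genes were chosen only where they held CCAAT and TATAAA. That these motifs are present in the windows shown was therefore fixed by the choice. In all, 6 motifs were searched on both strands, and capitals mark matches to those named for each window. For Cdk1 (chr10:69352863-69353162, minus strand) and Top2a (chr11:99024140-99024439, minus strand) they are the CCAAT box, which reads ATTGG on the other strand, the cell cycle element TTTGAA, which reads TTCAAA there, and its variant TTCGAA. For Hist1h1e (chr13:23622509-23622808, minus strand) they are the CCAAT box and the TATA box with the letters TATAAA.
Cdk1: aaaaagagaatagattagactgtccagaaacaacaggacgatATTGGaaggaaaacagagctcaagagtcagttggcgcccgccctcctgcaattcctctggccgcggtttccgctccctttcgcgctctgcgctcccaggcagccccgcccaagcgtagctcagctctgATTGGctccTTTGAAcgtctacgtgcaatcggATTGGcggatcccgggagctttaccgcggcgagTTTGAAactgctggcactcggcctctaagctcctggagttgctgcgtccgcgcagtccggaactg
Top2a: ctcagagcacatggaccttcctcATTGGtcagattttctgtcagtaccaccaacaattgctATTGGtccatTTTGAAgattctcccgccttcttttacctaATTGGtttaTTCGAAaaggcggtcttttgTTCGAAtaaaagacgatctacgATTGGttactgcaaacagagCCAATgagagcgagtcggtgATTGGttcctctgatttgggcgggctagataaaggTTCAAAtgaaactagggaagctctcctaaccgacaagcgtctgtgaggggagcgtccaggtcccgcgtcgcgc
Hist1h1e: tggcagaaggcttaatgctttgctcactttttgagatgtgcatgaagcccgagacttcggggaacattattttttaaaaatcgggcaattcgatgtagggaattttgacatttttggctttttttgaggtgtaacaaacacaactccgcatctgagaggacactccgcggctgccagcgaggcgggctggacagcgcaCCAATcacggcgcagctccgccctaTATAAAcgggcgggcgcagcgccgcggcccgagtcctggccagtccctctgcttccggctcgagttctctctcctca
The Cdk1 window holds 3 matches to CCAAT and 2 to TTTGAA, and that of Top2a 6 to CCAAT, 2 to TTTGAA and 2 to TTCGAA. Hist1h1e has 1 CCAAT and 1 TATAAA. The remaining motifs, left in lower case, were TTTCGCGC, with 1 match in the Cdk1 window, and ATTTGCAT, with none in these windows. Over all 32851 promoter windows, 37.4% held CCAAT, 17.9% TTTGAA, 1.56% TTCGAA 13.6% TATAAA, 1.74% ATTTGCAT and 0.323% TTTCGCGC on either strand. Of the 42 histone genes tested that had a window, 36 held CCAAT, 29 TATAAA, 19 TTTGAA, 9 ATTTGCAT, 8 TTTCGCGC and 1 TTCGAA. A histone gene counts when any of its windows holds the motif, whereas the shares before it count single windows, so the units differ. For the cell cycle list 30 of 40 genes had a window, and matches over that list were not counted. The chosen cell cycle windows therefore have no list value to set beside the shares of all windows. A match describes letters in the window and not a used site.

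Hormone and clock genes were examined since thyroid hormone is needed for the onset of hearing. Of 12 thyroid hormone genes 5 rose and 1 fell. Dio2, the enzyme that activates the hormone, went from 2.86, 2.41 and 1.31 to 57.7, 40.2 and 37.6 CPM (log2FC 4.37 ± 0.26, adjusted p 2.01e-07). Slco1c1, a transporter of thyroxine, went from 7.84, 5.61 and 5.997 to 302, 257 and 334 CPM (log2FC 5.51 ± 0.16), and the response genes Hr (2.70) and Klf9 (2.06) rose. Crym (chromosome 7, 120186380 to 120202111), a cytosolic protein that binds the hormone, went from 487, 383 and 367 to 6.46, 6.40 and 5.71 CPM (log2FC -6.06 ± 0.14, adjusted p 7.47e-10). The receptor genes Thra (log2FC -1.05 ± 0.11) and Thrb (log2FC -1.22 ± 0.11) had every P16 library below every P0 library but missed the fold change. Of 16 glucocorticoid genes 6 rose and 1 fell, with Tsc22d3 (1.40) and Pdk4 (2.13) among the former, while Fkbp5 did not reach the fold change (-1.16) except without P16 replicate 1 (-1.33). Of 23 clock genes 7 rose and none fell. Nr1d1, a repressor of the clock loop, went from 12.3, 17.3 and 16.1 to 42.3, 53.0 and 85.4 CPM (log2FC 1.96 ± 0.24, adjusted p 3.96e-05), and Arntl, an activator, did not pass (log2FC 0.15 ± 0.12). The time of day of dissection was not used here, and its part in the clock genes was not tested.

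Immune and blood genes were read beside the library that stood apart. Of 17 genes of MHC class I and antigen processing 6 rose and none fell, and without P16 replicate 3 it was 7 and none. H2-K1, a presenting molecule, was alike in all P16 libraries, at 16.1, 18.2 and 13.1 CPM at P0 and 89.4, 78.2 and 84.2 CPM at P16 (log2FC 2.40 ± 0.13, adjusted p 1.13e-07). Of 17 complement genes 7 rose and none fell, and without P16 replicate 3 it was 7 and 1. C4b was among those that rose, with 1.56, 3.05 and 1.51 CPM at P0 and 34.9, 28.4 and 32.8 CPM at P16 (log2FC 3.95 ± 0.29). Macrophage genes counted 1 higher and 1 lower of 20 (median 0.04), with the same counts and a median of -0.12 without P16 replicate 3. Csf1r, the receptor macrophages depend on, had 44.3, 61.6 and 42.6 CPM at P0 and 36.9, 36.1 and 56.6 CPM at P16 and did not pass (log2FC -0.21 ± 0.19). The lower gene was Lyve1 (-3.58), of perivascular macrophages and lymphatics. The higher was Itgam (2.03, and 1.45 to 2.33 when 1 library was left out). Both were named after their values were seen.

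Marrow neutrophil genes rose in 15 of 16 cases, and in 14 without P16 replicate 3, while their median went from 5.25 to 3.51. Genes were tested when they had over 0.5 CPM in all libraries of any 1 age. A gene below that level at P0 and E16 thus entered only through P16, where it was high. In lists with members near 0 at birth, the share that rose was partly fixed by this filter, and such members were not counted. S100a8, a granule protein of neutrophils, had 0.379, 0.391 and 0.353 CPM at P0 and 3.70, 3.87 and 50.4 CPM at P16 (log2FC 5.64 ± 1.07, adjusted p 0.000867). Replicate 3 was far above the others, which still exceeded every P0 library, and the fold change without it was 3.36. B lymphoid genes rose in 13 of 15 cases and in 10 without replicate 3. Their summed level did not show this rise, with 460, 396 and 410 CPM at P0 and 385, 379 and 539 CPM at P16. Ighm, the heavy chain of IgM, had 1.22, 1.60 and 2.28 CPM at P0 and 38.4, 40.6 and 118 CPM at P16 (log2FC 5.22 ± 0.47, or 4.55 without replicate 3). Erythroid genes rose in 10 of 17 cases and none fell, with a median of 3.31. Without replicate 3, 10 rose and 2 fell, and the median was 1.79. Slc4a1, the anion exchanger of red cells, had 3.50, 7.14 and 2.37 CPM at P0 and 21.0, 73.3 and 289 CPM at P16 and rose (log2FC 4.85 ± 0.83, or 3.49 without replicate 3). The globin gene Hbb-bs had 199, 298 and 164 CPM at P0 and 109, 134 and 525 CPM at P16 and was not called (log2FC 0.19 ± 0.49).

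Bone genes rose in 11 of 16 cases and 1 fell (median 3.33, or 3.02 without P16 replicate 3). Dmp1, a matrix protein of osteocytes, went from 1.01, 1.31 and 0.962 to 170.3, 94.99 and 113 CPM (log2FC 6.82 ± 0.26, adjusted p 1.24e-08), and Ibsp, bone sialoprotein, from 1.39, 1.67 and 0.673 to 222, 71.3 and 143 CPM (log2FC 6.87 ± 0.46). All P16 libraries were high and replicate 2 was the lowest in both. Osteoclast genes counted 3 higher and 1 lower of 8 (median 1.25), or 2 higher and 1 lower without P16 replicate 3 (median 0.85). Their summed level was 349.6 CPM in that library, against 199 and 179 CPM in the other P16 libraries and 163 to 177 CPM at P0. Acp5, a phosphatase of osteoclasts, rose (4.19, or 3.65 without replicate 3). Of 14 skeletal muscle genes 3 rose and 2 fell. Myh8, the perinatal myosin, ranged from 1.22 to 26.3 CPM at P0 with the highest in replicate 2, and fell (log2FC -7.41 ± 1.61, or -5.37 without that library). In endothelium and pericytes 5 of 20 genes rose and 2 fell, with Pecam1 (-0.56) and Cldn5 (0.38) not called. Bone and marrow lie around the cochlea, and how much of either each dissection carried cannot be told apart from age.

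Hereditary deafness genes gave no common direction. Of 115 tested, 19 rose and 11 fell (median 0.24), which is 16.5% and 9.57% beside 14.4% and 10.5% of all genes tested. In the step before birth, with the same P0 libraries, 29 of them were higher at P0 than at E16 and none lower, beside 4.71% higher and 3.49% lower of all genes tested. Of those that rose after birth, Col4a3 and Col4a4, collagens of basement membranes, went from 2.15, 2.45 and 1.80 to 124, 95.7 and 109 CPM and from 14.5, 17.0 and 14.2 to 143, 124 and 124 CPM. They were named after their values were seen, as was Tmprss3, a serine protease (2.52). Of those that fell, Fgf3, a growth factor of the early otic field, went from 4.30, 3.76 and 4.46 to 0.302, 0.272 and 0.555 CPM, and Ednrb, the endothelin receptor of melanocytes, from 163, 162 and 184 to 52.5, 26.1 and 27.5 CPM. Ednrb was again highest in P16 replicate 1, as Dct was. Antioxidant enzymes had 5 higher and 2 lower of 31, with Gpx3, a secreted glutathione peroxidase, at 13.4, 21.0 and 14.98 CPM at P0 and 82.7, 88.5 and 162 CPM at P16 (log2FC 2.73 ± 0.28), while Cat, catalase, did not pass (log2FC 0.13 ± 0.14).

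**Figure D5:**
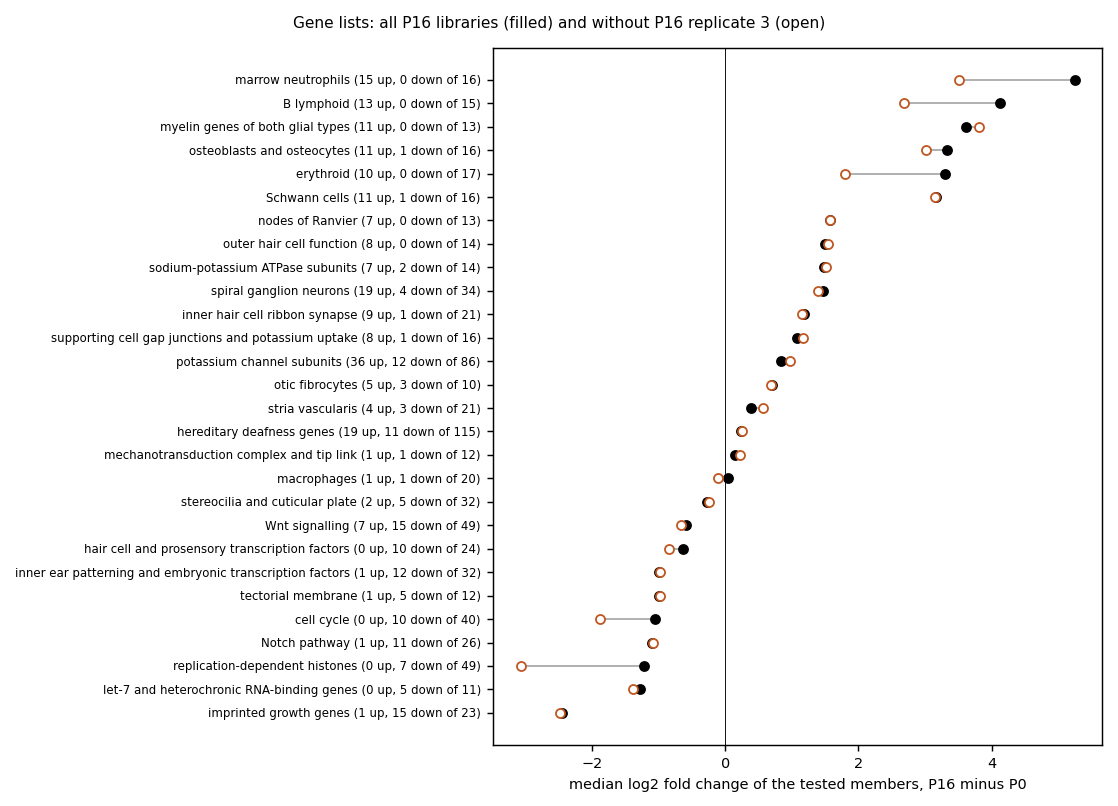
Median log2 fold change (P16 minus P0) of the tested members of 28 gene lists with all libraries (filled circles) and without P16 replicate 3 (open circles), with counts of called members beside each name. Cell cycle, histone, erythroid, B lymphoid and marrow neutrophil lists move most between the circles, for example from -1.22 to -3.07 for histones, and myelin and Schwann cell lists stay over 3.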

How the data were processed

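RNA of cochlear sensory epithelium was sequenced by the study as described above. The table holds unnormalized counts as deposited by the authors, who aligned reads to mm10 with STAR 2.5.3a and counted them over GENCODE genes. The submitters' processing notes list HTSeq and DESeq2, and the annotation release and strand setting are not given in the sources used here. Symbols and positions come from the table and GENCODE M21. Counts of the 9 cochlea libraries were tested here with edgeR 4.0.16 in R 4.3.3 (TMM factors, quasi-likelihood fit with age as the term, contrast P16 minus P0), after keeping genes over 0.5 CPM in all 3 libraries of an age (21097 of 22734). The test was two-sided with Benjamini-Hochberg adjustment over all genes tested. SE is the log2 fold change divided by the square root of F. CPM printed here use plain library totals. Named were the 12 called genes that rose and the 12 that fell the most at a mean of 20 CPM or more, the 6 most abundant called in each direction, list members marked as key, and 3 per direction in lists made by a symbol pattern. Other list members that a count turns on were named after their values were seen, namely Adgrv1, Atp13a5, Atp1b1, Atp2b2, Barhl1, Cabp1, Cacna1a, Calb1, Col4a3, Col4a4, Dner, Ednrb, Emilin2, Eps8l2, Epyc, Espnl, Fgf3, Fscn1, Gfra3, Gjc3, Gpr17, Gsn, Hes6, Id1, Ikzf2, Itgam, Kcna10, Kcna2, Kcnc1, Lhx3, Lrp2, Lyve1, Matn4, Myo3b, Myo7a, Nefm, Nhlh1, Nkx6-2, Pax2, Pmel, Ppp1r17, Prph, Runx1, Scn8a, Scrt2, Slc12a7, Slc4a11, Slco1c1, Snap25, Strip2, Syt1, Syt2, Tbx18, Tmprss3 and Ucma. The comparison and the gene lists were chosen with earlier results of these data known. The calculations were tested on simulated counts. Alternatives included DESeq2 1.42.0, other scalings and filters, GC-adjusted offsets, a replicate block and leaving out each library. Replicates of an age differed by more than sampling noise. Some genes that the naming rule takes are not reported here.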

Additional observations from a re-analysis of the deposited data

How the results depend on the processing

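The counts of 3040 higher and 2221 lower genes stayed within 1.5 times under every alternative run but one. A test against a fold change of 2.5 itself (glmTreat), which asks more by its construction, gave 1480 higher and 949 lower. Leaving out each library in turn gave 2875 to 3167 higher and 2002 to 2551 lower genes, DESeq2 gave 3046 and 2221, and GC-adjusted offsets gave 2989 and 2052. Deviations of libraries with the same replicate number at P0 and P16 correlated at 0.534, -0.29 and 0.38 across genes. Those with different numbers correlated at -0.558 to 0.468. Replicate 1 favoured transcripts of low GC content at E16, P0 and P16 (Spearman correlations -0.619, -0.691 and -0.543), whereas replicates 2 and 3 had both signs. Whether the numbers stand for pairs or a shared batch was not tested. With the number as a replicate block, 3034 genes were higher and 2238 lower, and with the replicate block and GC-adjusted offsets 2962 and 2060. Among genes that were not called, the log2 fold change turned sign for Dct (-0.29 to 1.15 without 1 library, lowest without P16 replicate 1), Mki67 (-1.92 to 0.0658 without 1 library, highest without P16 replicate 1), Mog (-0.53 to 1.02, lowest without P16 replicate 2), Hbb-bs (-0.82 to 0.56, lowest without P16 replicate 3, and -0.0574 with the replicate block), Sox10 (0.26 with GC-adjusted offsets, with and without the block) and Myo7a (-0.21 to 0.11, above 0 without P0 replicate 3 or P16 replicate 1, 0.23 with GC-adjusted offsets and 0.24 with the block added). A list median was taken to turn sign only when it exceeded the list's spread between libraries on both sides of 0. This held for stria vascularis genes (-0.27 to 0.57, lowest without P16 replicate 1) and neurotrophin genes (-0.22 to 0.084, highest without P0 replicate 2, 0.14 with GC-adjusted offsets, with and without the block). Without 1 library, medians also crossed 0 within that spread on at least 1 side in other lists. These were calcium channel subunits (-0.26 to 0.0195), antioxidant enzymes (-0.0787 to 0.104), macrophages (-0.12 to 0.21) and skeletal muscle (-0.97 to 0.0457). With GC-adjusted offsets 25 of 49 list medians stayed within the list's spread between libraries, and 7 of 49 did so in every fit. Among those that moved further with these offsets were stereocilia genes, from -0.28 to -0.0067. Tectorial membrane genes went from -0.998 to -0.62 and spiral ganglion genes from 1.47 to 1.93. No called gene named above turned sign. Some called genes lost their call in some fits. Bsnd missed the adjusted p (0.0118 to 0.0192) at -1.27 to -1.60 without P0 replicates 2 or 3 or P16 replicates 2 or 3. At -1.27 without P16 replicate 2 it missed the fold as well. Scrt2 kept the fold and missed the adjusted p at 1.32 and 1.65 without P0 replicates 1 and 3. At 0.99 without P16 replicate 3, Scrt2 missed the fold. Other genes near the required fold fell short of it. These were Sox2 at -1.24 and -1.25 without P0 or P16 replicate 3, and Myo3b at -1.23 and -1.25 without the same libraries. Ikzf2 did so at 1.195 to 1.32 without P0 replicates 2 or 3 or P16 replicates 1 or 2. Epyc did so at 1.21 to 1.32 without P0 replicate 2 or P16 replicates 1 or 2. Eps8l2 did so at 1.199 to 1.32 without P0 replicate 1 or P16 replicates 2 or 3. Cacna1a at 1.17 and 1.198 and Runx1 at 1.199 and 1.16 did so without P0 replicate 1 and P16 replicate 3. Lrp2 did so at 1.23 without P16 replicate 1, and Tsc22d3 at 1.30 without P16 replicate 2. Hist1h2ac at -2.17 to -2.46 without P0 replicates 2 or 3 or P16 replicate 2, Itgam at 1.75 and 2.13 without P0 replicates 1 and 2, and Myh8 at -8.81 without P16 replicate 2 kept the fold and missed the adjusted p or the separation, and S100a8 was not called by DESeq2. Calls gained were those of Otof at 1.47 and Thrb at -1.357 with GC-adjusted offsets, Cdk1 at -2.199 with the replicate block and -2.218 with both, Jag2 at -1.348 without P0 replicate 1 and Fkbp5 at -1.335 without P16 replicate 1, beside Mki67, Cdk1 and Top2a without P16 replicate 3. With GC-adjusted offsets Bsnd at -1.302, Twist1 at -1.215, Epyc at 0.89, Ikzf2 at 1.035, Sox2 at -1.281 and Runx1 at 1.248 were not called. With the replicate block Ikzf2 at 1.318 was not called, nor at 1.029 with both. Twist1, Epyc, Sox2 and Runx1 were also lost with both. Fitting only the 6 libraries at P0 and P16 ended the calls of Bsnd, Cacna1a, Eps8l2, Epyc, Ikzf2, Runx1 and Scrt2, other filters on low counts those of Cacna1a, Eps8l2 and Ikzf2, upper-quartile factors that of Sox2, and DESeq2 or its size factors that of Cacna1a. The causes were not tested.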

Other observations

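The shares of called genes by class of the GENCODE annotation were not tested against each other. Of 15439 protein-coding genes tested, 12.4% were higher and 11% lower at P16. Of 700 lincRNA genes 25.1% were higher and 15.9% lower, of 1206 antisense genes 19.2% were higher and 7.88% lower, and of 198 sense intronic genes 26.8% were higher and 5.05% lower. Of 137 snoRNA genes 7.3% were higher and 10.9% lower. Where the counting did not use strand, reads of antisense and intronic genes cannot be told apart from those of the genes they overlap. Of 133 loci annotated as miRNA 23.3% were higher and 6.77% lower, which in libraries of long RNA reads the region of the precursor and not the mature miRNA.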
